A study of Mus musculus with 4 samples.

Results

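The cells described here are cushion endocardial cells of the mouse heart at E10.5 (the embryonic day), profiled by droplet single-cell RNA sequencing of whole hearts. They were chosen by a rule on transcript counts and not by clustering. A barcode was kept with 500 to 6000 genes, 2000 to 50000 unique molecular identifiers (UMIs, which count single captured transcripts) and at most 20% of UMIs on mitochondrial genes. A kept cell was called endothelial when Cdh5 and Pecam1, 2 junction genes of endothelium, together had at least 2 UMIs. It was then called a cushion endocardial cell when Npr3 was at 0, Wnt4 had at least 1 UMI or Nts at least 2 UMIs, Tnnt2 stood under 10 UMIs per 10000 UMIs of the cell (CP10K) and Twist1 was at 0. The rule chose 408 cells, 5.66% of 7205 endothelial cells and 1.46% of 28025 kept cells out of 33589 barcodes.

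There were 4 libraries of C57BL/6J hearts. Wt1 and Wt2 came from wild-type embryos, and Ho1 and Ho2 from embryos homozygous for the Cyp51 I383V allele, made with CRISPR/Cas9; Cyp51 encodes lanosterol 14-alpha-demethylase, an enzyme of cholesterol synthesis. No other allele or agent distinguished the groups, and the sources used here do not say whether the libraries came from separate litters or from pooled hearts, so the p-values measure the spread between these libraries, which may be technical. Ho1 was the only library in which the cushion cells held Xist at more than 1 UMI, with 329.9 CPM against 0, 0.547 and 0 CPM in Wt1, Wt2 and Ho2, and it held no UMI of the Y-linked genes Ddx3y, Eif2s3y, Kdm5d and Uty. In Ho1 the cardiomyocyte transcripts were also higher in every endothelial population examined. Both features of Ho1 stand beside the results they touch below.

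Endocardium is the endothelium that lines the heart. Over the atrioventricular canal and the outflow tract it covers the cardiac cushions, where BMP, TGF-beta and Notch signals lead some of its cells to lose their junctions and invade the hyaluronan-rich jelly as mesenchyme, the tissue from which valves and septa are formed. The endothelium of these narrow passages is exposed to high shear from the blood stream, and Klf2, Klf4 and Edn1 are known shear-responsive genes. Chamber endocardium carries Npr3, a clearance receptor for natriuretic peptides, and supports the growth of trabeculae through neuregulin. Wnt4 encodes a secreted Wnt ligand, and Nts encodes the precursor of the peptide neurotensin.

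The upstream sequences of 2 genes show where letters of a MEF2 motif (CTANNNNTAG) and of an AP-1 motif (TGANTCA) lie near cushion genes. MEF2 factors are known to act on the Klf2 promoter in endothelium, and Klf2 was the marker of these cells that the rule did not use. Nts is a gene of the rule. Both motifs were searched on both strands over the 250 bases before each start in RefSeq promoters of GRCm38.p6; 1052 of 32851 promoters (3.20%) held the MEF2 letters and 2217 (6.75%) the AP-1 letters. The promoters of Wnt4, Dhh, Aqp1, Klf4, Edn1, Isl1, Bmp4 and Vcan held neither. Each line runs from base -250 to base -101 before the start, 5′ to 3′ on the strand of the gene, with the motif in capitals; Klf2 lies at chr8:72318812-72318961 (+) and Nts at chr10:102490519-102490668 (-).
Klf2: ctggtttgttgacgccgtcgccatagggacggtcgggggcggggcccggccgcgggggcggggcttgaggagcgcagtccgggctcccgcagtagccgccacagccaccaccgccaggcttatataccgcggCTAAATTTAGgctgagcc
Nts: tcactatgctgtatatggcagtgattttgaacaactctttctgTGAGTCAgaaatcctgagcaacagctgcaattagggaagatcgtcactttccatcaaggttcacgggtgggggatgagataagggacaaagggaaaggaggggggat
The MEF2 letters lie at -118 to -109 of Klf2 and the AP-1 letters at -207 to -201 of Nts. A match is a description of letters only.

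The values of the genes in the rule are descriptions, since they chose the cells. The libraries gave 92, 131, 107 and 78 cushion cells in Wt1, Wt2, Ho1 and Ho2, with 1112312, 1829377, 1588404 and 1148330 UMIs in sum. A cushion cell had a median of 13376 UMIs, from 2525 to 37007. The library medians were 11570, 13313, 14000 and 13997 UMIs, below the 14027.5, 16633, 17383 and 17060 UMIs of the other endothelial cells of the same libraries. Wnt4 summed to 272.8, 125.9, 275.9 and 223.2 CPM (UMIs scaled to a library sum of 1000000) in the cushion cells and to 93.64, 90.83, 90.41 and 99.27 CPM in the other endothelial cells. Nts summed to 322.5, 504, 475.2 and 531.8 CPM against 57.81, 53.13, 67.2 and 74.5 CPM. Cdh5 stood at 314.5, 341.8, 292.6 and 350.5 CPM against 252.9, 241.6, 230.1 and 226.5 CPM. CPM values were scaled within each comparison, so those of a gene differ slightly between comparisons.

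The edges of the rule lay where single UMIs decide. By Wnt4, 74 cells entered with 1 UMI and 161 with 2 or more; by Nts of 2 UMIs with no Wnt4, 24 cells entered, while 50 cells with 1 Nts UMI stayed out. The sum of Cdh5 and Pecam1 was 2 in 47 cushion cells and 1 in 47 cells left out by it alone. A single Npr3 UMI kept out 268 cells that met every other condition, of 1228 kept out by Npr3 alone, and Twist1 alone kept out 696. Most endothelial cells with the Wnt4 or Nts counts of the rule, 69.4% of 3816, held an Npr3 UMI, close to the 68.1% of all endothelial cells that did. As a background, at least 1 Wnt4 UMI was found in 3.01%, 2.43%, 2.43% and 2.49% of cardiomyocytes (median 14464 to 19193.5 UMIs), a cell type that should lack it, and at least 2 Nts UMIs in 0.134%, 0.133%, 0.200% and 0.0445%. Among the cushion cells, 65.2%, 48.9%, 69.2% and 47.4% held a Wnt4 UMI.

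The label rests on Klf2 and Cdh5 beside the 2 entry genes, and only Klf2 was free of the rule. A Klf2 UMI was found in 68.5%, 82.4%, 84.1% and 79.5% of cushion cells and in 14.3% to 23.3% of cardiomyocytes. The Npr3-positive endothelial cells held Klf2 as well, and the cushion level was 2.50-fold higher, so Klf2 differed by level and was not confined to the cushion cells. Nfatc1, Gata4, Tbx20, Has2 and Vcan, described below, are other genes known in cushion endocardium that were above the Npr3-positive level, but their lists were mixed: 7 of 14 endocardial factors were higher and 3 lower (Foxc1, Ece1 and Etv2), and 16 of 31 cushion matrix genes were higher and 8 lower, among them Postn, Col3a1 and Bgn. The rule set no upper limit on genes of vascular endothelium. Against the Npr3-positive cells Cd34, Cxcr4, Sox17 and Gja5 of the vascular list were higher and Gja4 and Lyve1 lower. The 173 cells that entered by Nts without Wnt4 held more Gja5, Gja4, Sox17 and Cd34 than the cells with Wnt4. The cells with Wnt4 held more Nrg1, the neuregulin of chamber endocardium. Whether the label fits both groups alike was not tested. Transcripts of other types were present. The cardiomyocyte list summed to 903 to 4984 CPM over the libraries, with Myl7 at a mean of 647 CPM, the mesenchyme list to 248 to 496 CPM, led by Col3a1 at 217 CPM, and the blood list to 154 to 162 CPM, led by Hbb-y at 141 CPM. Of the same lists, Alas2, Slc4a1 and Gata1 of blood had no UMI in the 408 cells, nor did C1qa, C1qc and Ptprc of macrophages, whose list summed to 7.11 to 13.5 CPM. Scrublet, which scores barcodes against simulated doublets, marked 10 of the 408 cells (2.45%), against 3.54% of kept cells. No barcode of a cushion cell was shared between libraries, while the 6 pairs of libraries shared 7 to 28 kept barcodes each.

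The first comparison was with the Npr3-positive endothelium, 2436 cells under the same limits on Cdh5, Pecam1, Tnnt2 and Twist1. Against it 12 of 18 flow response genes were higher and 1 lower, and all 30 genes of the G2/M phase list were lower, while the Notch and cushion matrix lists held genes that rose and genes that fell. Klf2, a zinc-finger factor induced by flow, was 2.50-fold higher. Has2, the hyaluronan synthase of cushion jelly, was 5.35-fold higher, and Dhh, the hedgehog ligand, 5.91-fold higher. Irx5, an Iroquois homeobox factor, was 6.54-fold lower. In all, edgeR's quasi-likelihood test with Benjamini-Hochberg adjustment over 10884 genes, with the library as a block, called 3203 genes (29.4%), of which 15.8% of all tested were higher in the cushion cells and 13.7% lower. The list counts that follow are read against these shares. The median difference of all genes was near 0 (0.00075 on the log2 scale).

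Of the 18 flow response genes tested, 12 were higher and 1 lower, with a median log2 difference of 0.43. Klf2 stood at 431, 470.3, 519 and 669 CPM in the cushion cells of Wt1, Wt2, Ho1 and Ho2 and at 184, 191, 209 and 247 CPM in the Npr3-positive cells, a log2 fold change of 1.32 ± 0.05 (SE, 4 library pairs; edgeR adjusted p = 2.4e-18). The ranges did not overlap, and Ho2 was highest in both populations. Klf4, a related factor, stood at 29.6, 42.5, 67.7 and 63.1 CPM against 11.0, 12.3, 17.3 and 13.7 CPM. Edn1, the precursor of endothelin, stood at 153, 166, 228 and 208 CPM against 60.3, 63.0, 78.0 and 84.5 CPM. Aqp1, a water channel, had the largest difference of the list, 25.1, 34.0, 45.8 and 33.3 CPM against 4.87, 3.72, 6.82 and 3.25 CPM. All 4 libraries were higher for each of these genes. Thrombomodulin (Thbd) and the CCM receptor Heg1 also rose. Ptgs1, a cyclooxygenase, was the only member of the list that fell (log2 fold change -1.69 ± 0.25, edgeR adjusted p = 5.1e-06).

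**Figure D1:**
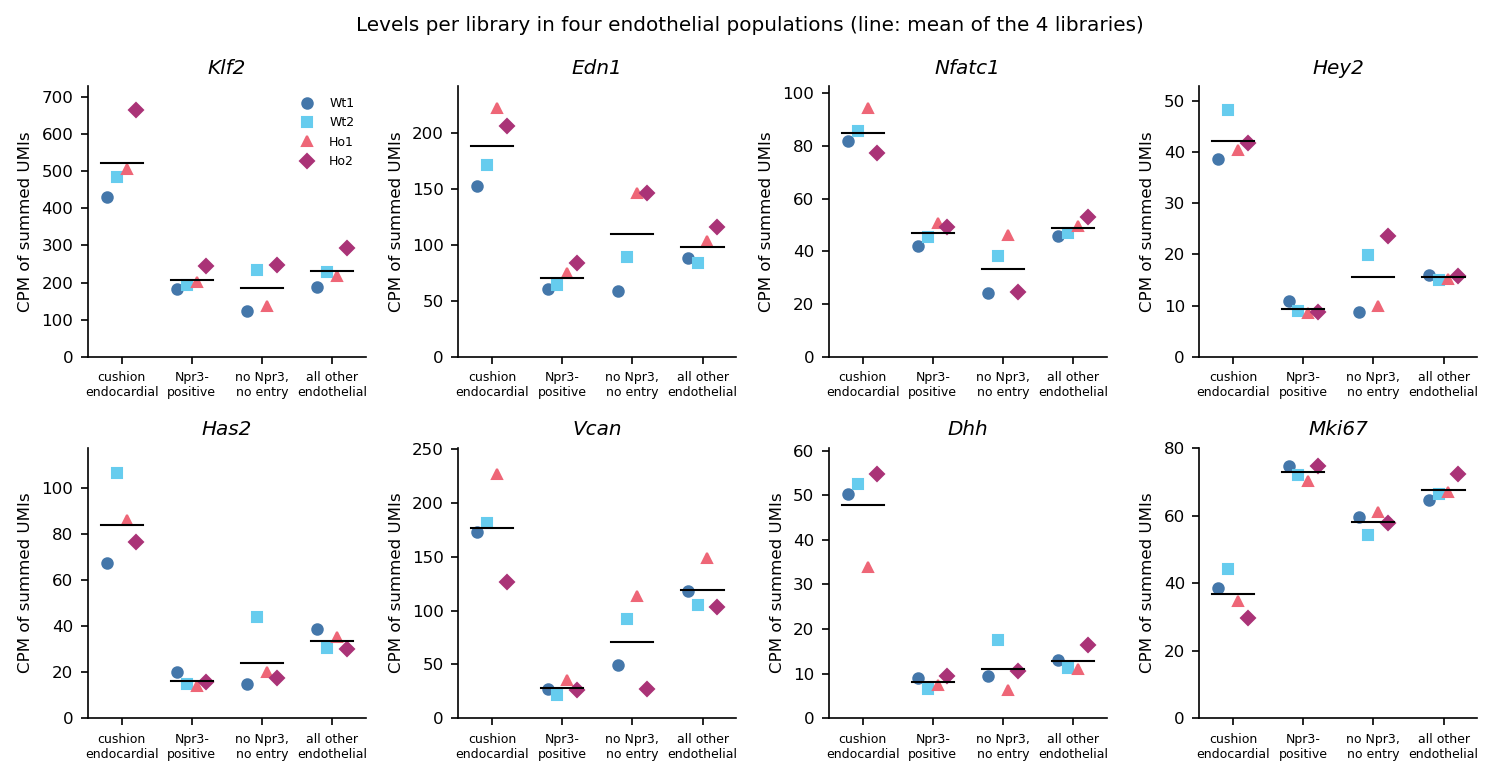
Levels of 8 genes, as CPM of the UMIs summed per library (vertical axes from 0), in the cushion endocardial cells, the Npr3-positive endothelial cells, the endothelial cells with neither Npr3 nor the Wnt4 or Nts counts of the rule (marked no entry), and all other endothelial cells; symbols are the 4 libraries and the line is their mean. In all 4 libraries the cushion cells lie above the Npr3-positive cells for Klf2, Edn1, Nfatc1, Hey2, Has2, Vcan and Dhh, and below them for Mki67.

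Genes of the endocardial factor list differed in both directions, with 7 of 14 higher and 3 lower. The list is not confined to transcription factors: Bmp6 and Vegfa were among the 7 and Ece1 among the 3. Tbx20, a T-box factor of the endocardium and myocardium, stood at 118, 129.7, 177 and 169 CPM against 47.5, 37.2, 48.2 and 43.7 CPM (log2 fold change 1.76 ± 0.09, edgeR adjusted p = 2.0e-15). Nfatc1, the calcineurin-regulated factor of valve endocardium, stood at 81.6, 83.4, 96.8 and 78.0 CPM against 42.1, 44.9, 53.1 and 49.6 CPM (0.85 ± 0.09). Both Npr3-positive ranges lay wholly below the cushion ranges. Gata4 rose in the same comparison with 75.4, 100.4, 119 and 121 CPM against 57.3, 54.8, 58.2 and 64.3 CPM, and Gata6 and Gata5 by less. Gata5 lost the call with DESeq2 and with a library left out. Foxc1 and Etv2, a factor of early endothelial specification, fell.

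Notch pathway genes rose in 7 of 17 cases and fell in 3. The ligand Jag1 stood at 34.1, 46.2, 32.9 and 42.9 CPM against 12.4, 12.4, 8.03 and 15.2 CPM, and the ligand Jag2 rose as well, while the ligand Dll1 was lower, 4.49, 7.44, 4.52 and 7.89 CPM against 17.8, 16.2, 23.4 and 19.3 CPM. Among the effectors, Hey2 stood at 38.6, 46.8, 41.3 and 42.1 CPM against 10.8, 8.77, 8.86 and 8.79 CPM (log2 fold change 2.20 ± 0.14, edgeR adjusted p = 6.0e-13), and Hey1 and Heyl rose with it. Hes1 was lower. The receptor Notch1 stood at 79.8, 69.1, 108 and 89.4 CPM against 75.4, 82.3, 89.3 and 84.0 CPM and was not called (0.05 ± 0.09, adjusted p = 0.72).

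Of 12 BMP and TGF-beta ligands 5 passed the filter on low counts, and Bmp2, Bmp4, Bmp6, Tgfb1 and Tgfb2 were higher. Low genes such as Bmp2 passed through their level in the cushion cells, so the count is no support for the list. Against all other endothelial cells 3 of 9 ligands were higher and 1 lower, and against the cells with neither Npr3 nor the entry counts none of 3 was called. Bmp4 stood at 44.0, 45.7, 28.4 and 28.9 CPM against 9.45, 9.62, 5.45 and 14.3 CPM. Bmp2, the inducer of cushion transition made mainly by myocardium, was low in both, 6.28, 2.66, 5.16 and 9.64 CPM against 0.695, 0.621, 1.14 and 0.602 CPM. Of 23 receptors, SMADs, antagonists and targets, 7 rose and 1 fell. The secreted BMP regulator Bmper had the largest difference (2.98 ± 0.21, edgeR adjusted p = 6.3e-12), and the inhibitory Smad6 stood at 149.8, 170.1, 134 and 159 CPM against 67.8, 66.8, 66.3 and 80.6 CPM. Id1 and Id3, transcriptional targets of BMP signals, were higher, and Tgfbr3, the betaglycan co-receptor, was lower in every library with 23.3, 19.7, 18.1 and 19.3 CPM against 60.9, 59.6, 65.2 and 60.2 CPM.

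Among 14 factors of mesenchymal transition and cushion identity tested, 7 rose and 2 fell. Sox9, a factor of cushion mesenchyme, stood at 33.2, 20.7, 32.9 and 24.5 CPM against 4.73, 2.87, 4.77 and 6.39 CPM (log2 fold change 2.60 ± 0.19, edgeR adjusted p = 9.4e-12), and the homeobox factor Prrx2 at 83.4, 59.5, 43.9 and 64.9 CPM against 16.1, 7.68, 8.10 and 10.2 CPM. Both ranges were apart. Msx1 rose by less. The transition factors Snai1 and Snai2 were low and were not called: Snai2 stood at 1.79, 3.72, 5.16 and 5.26 CPM against 2.92, 1.71, 1.97 and 3.01 CPM. Cdh11, a cadherin of mesenchyme, was lower, as was Foxc2. Twist1 was at 0 on both sides by the rule, so these values describe cells chosen to lack it.

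The cushion matrix list split, with 16 of 31 genes higher and 8 lower. Has2 stood at 67.3, 104, 88.4 and 77.1 CPM against 20.3, 14.8, 14.5 and 15.8 CPM (log2 fold change 2.42 ± 0.13, edgeR adjusted p = 6.5e-15). Vcan, the hyaluronan-binding proteoglycan versican, stood at 172, 176, 232 and 127 CPM against 27.5, 21.4, 37.0 and 26.3 CPM, and Tnc, tenascin C, at 30.5, 45.2, 38.7 and 25.4 CPM against 3.62, 4.03, 5.30 and 6.26 CPM. For all 3 the lowest cushion library was above the highest Npr3-positive library. Hapln1, which links hyaluronan to versican, was abundant on both sides, at 434, 393, 599 and 494 CPM against 375, 347, 405 and 422 CPM. The genes that fell included basement membrane collagens Col4a1 and Col4a2, Col3a1, Col13a1 and the matricellular Postn.

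Wnt4 itself was part of the rule, and the other Wnt genes were not. Of the 8 other Wnt ligands 3 passed the filter on low counts, and Wnt2, Wnt5a and Wnt11 were higher. Low genes could pass that filter through their level in the cushion cells, so the count is no support for the list. Wnt5a lost the call with DESeq2 and with a library left out. Against all other endothelial cells 2 of 6, Wnt9b and Wnt11, were called, and against the cells with neither Npr3 nor the entry counts 1 of 2, Wnt11. Against the Npr3-positive cells Wnt11 stood at 96.9, 111, 134 and 119 CPM against 51.2, 47.1, 38.1 and 44.9 CPM. Of 17 receptors and modulators, 8 rose and 2 fell. The secreted antagonists Dkk1, Dkk2, Dkk3 and Sfrp1 were among those that rose, as was Rspo3, a secreted enhancer of Wnt signalling, which stood at 9.87, 17.0, 20.6 and 10.52 CPM against 2.22, 1.55, 3.79 and 3.37 CPM. Every one of the 4 libraries was higher for Rspo3. Dkk3 lost the call without Wt2.

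Hedgehog pathway genes bear on this series because signalling through Ptch1, Smo and Gli1 depends on sterols. The ligand Dhh stood at 50.2, 51.0, 34.8 and 55.2 CPM against 9.04, 6.36, 7.72 and 9.52 CPM (log2 fold change 2.56 ± 0.15, edgeR adjusted p = 5.5e-14), and the co-receptors Boc and Gas1 were higher too. The cushion range of Dhh lay wholly above the Npr3-positive range. In total 4 of 14 genes rose and 2 fell. The receptor Ptch1 stood at 20.6, 21.3, 23.9 and 21.03 CPM against 17.8, 16.3, 18.9 and 18.9 CPM and was not called (adjusted p = 0.14). Shh and Ihh had no UMI in the cushion cells, and Gli1, the transcriptional readout of the pathway, had 1. A count of 0 allows up to 3 UMIs in a library of 1112312 to 1829377 UMIs, for counting error only.

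Cell cycle genes were lower: all 30 genes of the G2/M phase list were lower, with a median log2 difference of -0.71, and 18 of 26 S phase genes were lower with none higher. Mki67, a marker of cycling cells, stood at 38.6, 43.0, 35.5 and 29.8 CPM against 74.5, 70.9, 73.2 and 75.4 CPM (-0.97 ± 0.10, edgeR adjusted p = 2.1e-08). Cenpf, a kinetochore protein, had the largest fall, 80.7, 79.2, 74.8 and 65.7 CPM against 174, 173, 180.0 and 156 CPM. Of 14 genes in the list of cycle brakes and cyclins 2 were higher, the brake Cdkn1a and Myc. The 7 lower ones included the brakes Cdkn1c and Cdkn2c. The depth of the cells moved with this result: the Npr3-positive cells had medians of 13492, 16107, 16520 and 16780 UMIs, above the cushion medians. When every cell was thinned to 2000 UMIs before the rule was applied, which was run for the comparison with all other endothelial cells, 1 gene of the G2/M phase list was called lower in place of 30 and the list median moved from -0.70 to -0.23. When each cell's UMIs were split at random into 2 equal portions, with the rule applied to the first and levels read from the other, 22 were called lower with a median of -0.49. Both settings also changed which cells met the rule, since a cell that lost its Npr3 or Twist1 UMIs could enter. After thinning 36, 55, 57 and 31 cells met it in Wt1, Wt2, Ho1 and Ho2, with levels read from all their UMIs. The part of depth alone was not tested.

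Sterol and energy genes were mostly level or lower. Of 25 cholesterol synthesis genes none was higher and 7 were lower, with a median log2 difference of -0.21; Sqle, Msmo1, Fdps, Acat2, Erg28 and Lbr were among those that fell, and the first 4 lost the call with DESeq2 and without at least 1 library. Of 22 glycolysis and hypoxia genes 10 were lower, among them Ldha, which stood at 833, 988, 908 and 960.5 CPM against 1367, 1458, 1301 and 1348 CPM. The exception was Vegfa, which rose to 34.1, 35.1, 19.998 and 42.1 CPM against 9.04, 9.85, 11.3 and 11.7 CPM. Immediate early and heat shock genes, which dissociation is known to induce, were higher in 9 of 19 cases and lower in none, with Jund at 563, 604, 519.9 and 463 CPM against 228, 221, 189 and 196 CPM. The part of dissociation in these values was not tested.

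**Figure D2:**
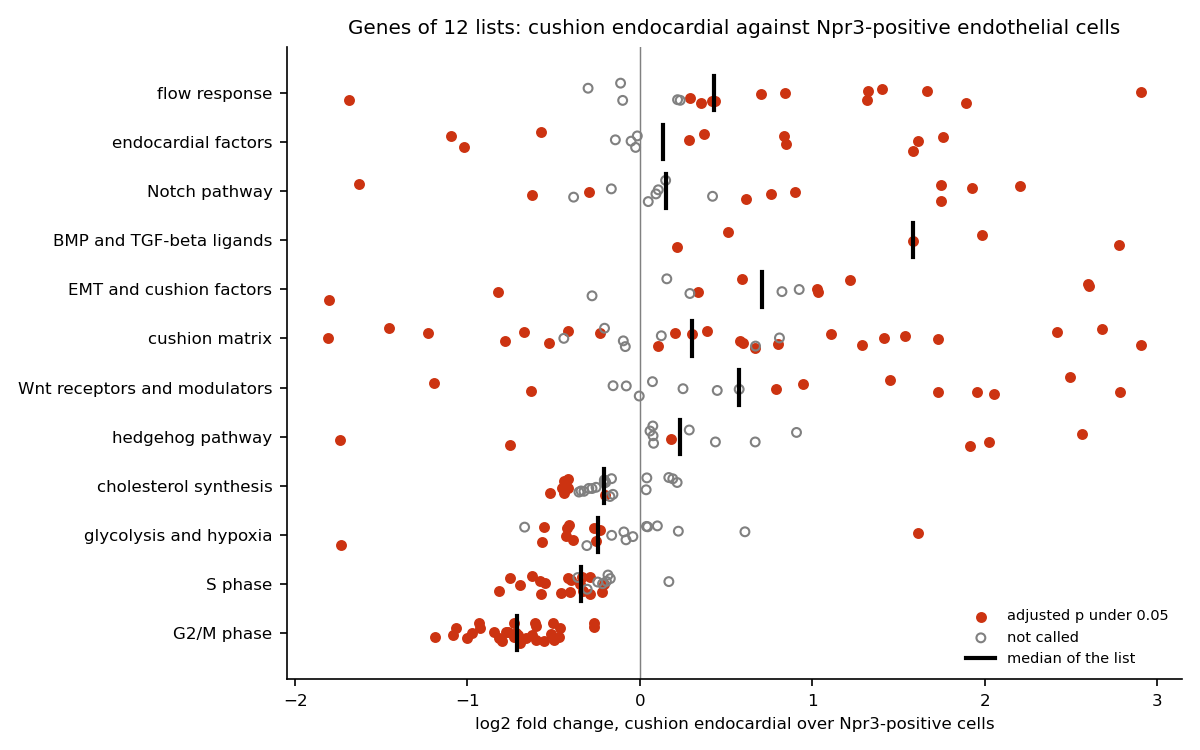
Log2 fold change of each tested gene of 12 lists, cushion endocardial cells over Npr3-positive endothelial cells (horizontal axis, 0 marks no difference); filled points passed an adjusted p of 0.05, open points did not, and the bar is the median of the list. All 30 genes of the G2/M phase list lie left of 0, while the 5 BMP and TGF-beta ligands that passed the count filter lie right of it and the cushion matrix list spreads from Postn on the left to Tnc on the right.

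The genes with the largest differences among those above 20 CPM included several outside the lists. Higher were the calcium-activated chloride channel Ano1 (log2 fold change 3.17 ± 0.19), the serpin Serpinb1a (3.15 ± 0.23), cysteine dioxygenase Cdo1 (2.87 ± 0.16) and the secreted Igfbp7, which stood at 171, 191, 258 and 249 CPM against 49.8, 24.2, 29.1 and 35.2 CPM. Lower were Dlk1, a Notch-related membrane protein, at 11.7, 8.50, 6.45 and 0.876 CPM against 59.4, 65.2, 55.1 and 36.9 CPM, Irx5 at 18.8, 22.9, 10.3 and 10.52 CPM against 88.3, 107, 103 and 124 CPM, and its neighbour in the same gene cluster Irx6. All held the same direction in 4 of 4 libraries. Chamber genes other than Npr3 were less clear: Cgnl1 was lower, Efnb2 and Heg1 were higher, and Nrg1, the trabecular neuregulin, stood at 34.99, 26.0, 36.1 and 28.0 CPM against 40.3, 33.7, 32.0 and 27.6 CPM and was not called. Efnb2 lost the call with DESeq2 and with a library left out.

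General endothelial genes divided evenly, with 6 of 20 higher, such as the lectin Clec14a, and 6 lower, such as the VEGF receptor Kdr, at 107, 104, 79.3 and 118 CPM against 164, 163, 183 and 210.5 CPM, and the sialomucin Emcn. Of 8 vascular genes, Cd34, Cxcr4, Sox17 and Gja5 were higher and Gja4 and Lyve1 lower. Gja4 lost the call with DESeq2 and with a library left out. Of 18 guidance genes tested, 9 were higher and 1 lower; the netrin receptor Unc5b stood at 63.7, 62.2, 60.6 and 51.7 CPM against 28.5, 19.2, 17.4 and 21.2 CPM. Its cushion range lay wholly above the Npr3-positive range.

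Transcripts of other cell types moved with this comparison. The 16 cardiomyocyte genes summed to 1141, 903, 4984 and 1378 CPM in the cushion cells and to 781, 917, 2574 and 941 CPM in the Npr3-positive cells, with Myl7 the most abundant, and 12 of 14 tested were called higher; without Ho1 4 of 13 were called higher and 1 lower. The 12 mesenchyme genes summed to 496, 326, 381 and 248 CPM against 458, 418, 475 and 394 CPM, led by Col3a1 with Twist1 at 0. The 9 epicardial genes summed to 41.4, 23.0, 41.6 and 14.8 CPM against 11.4, 8.99, 10.5358 and 12.9 CPM, led by Tcf21, and the 11 epithelial genes to 79.1, 52.5, 30.8 and 44.4 CPM against 37.6, 17.5, 10.6 and 37.3 CPM, led by Krt18. The part of these transcripts in the differences above was not tested.

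A comparison added after the data were seen applied the same entry condition on both sides. It set the cushion cells against the 1228 Npr3-positive cells that met the Wnt4 or Nts counts, and 27.9% of 9938 genes were called. The levels of the entry genes still differed: Nts stood at 323.2, 501.7, 477.1 and 532.4 CPM against 106.9, 83.94, 94.12 and 121 CPM, and Wnt4 at 273.4, 125.3, 276.9 and 223.4 CPM against 211.8, 152.3, 165.5 and 141 CPM. Klf2 stood at 234, 224, 249 and 267 CPM in these Npr3-positive cells and the cushion cells remained above it in every library (log2 fold change 1.09 ± 0.06, edgeR adjusted p = 1.2e-14). Has2 (2.02 ± 0.12), Dhh (1.94 ± 0.14) and Nfatc1 (0.72 ± 0.09) were higher again, Irx5 (-2.71 ± 0.15) and Mki67 (-0.95 ± 0.11) lower. Both comparisons share the cushion cells; against all Npr3-positive cells the log2 fold changes were 2.42 for Has2, 2.56 for Dhh and 1.32 for Klf2.

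The other endothelial cells, 6797 in all, also hold cells with Twist1 and with high Tnnt2, so part of this comparison follows from the rule. Of 12655 genes 20.5% were called, 10.3% higher and 10.1% lower. The flow response list again stood out in count, with 13 of 19 higher and 1 lower; Klf2 stood at 427, 472, 517 and 665 CPM against 190.4, 223, 227 and 293 CPM (log2 fold change 1.15 ± 0.04, edgeR adjusted p = 1.7e-15). Wnt9b, a Wnt ligand of cushion endocardium, was rare but higher, with 6.22, 2.13, 12.2 and 9.59 CPM against 0.883, 1.27, 0.901 and 0.934 CPM. Stmn2, a microtubule regulator better known from neurons, stood at 434, 433, 307 and 457 CPM against 101, 82.2, 54.2 and 92.8 CPM. For each of these genes the summed level of the cushion cells was higher in all 4 libraries. Of the cardiomyocyte list all 15 tested were lower and of the mesenchyme list 7 of 11, on which the limits on Tnnt2 and Twist1 bear directly; Postn, Pf4 and Rtn1 were lower but were higher, without passing the test for Postn and Pf4, once cells with Twist1 were let in. The 2-portion split left 1437 of the 2591 calls and thinning left 634, and of the 238 called genes in the lists 229 of 230 tested kept their direction under the split and 193 of 216 under thinning.

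The 359 endothelial cells with neither Npr3 nor the entry counts gave another contrast under the same limits. Of 8253 genes 11.7% were called, 6.4% higher in the cushion cells and 5.3% lower. These were 965 genes by edgeR, which called 617 without Ho2, and DESeq2 called 389. Endocardial factors were higher in 7 of 13 cases and lower in none: Nfatc1 stood at 81.8, 83.7, 97.8 and 78.3 CPM against 25.1, 37.5, 50.7 and 25.3 CPM (log2 fold change 1.32 ± 0.15, edgeR adjusted p = 1.3e-05), and Gata4, Gata5, Tbx20 and Hand2 rose too. Flow response genes were higher in 9 of 18 and matrix genes in 12 of 27, with 1 and 0 lower. Genes lower in the cushion cells included endothelial and myeloid ones. Cldn5, the tight-junction claudin of vessels, stood at 24.3, 23.4, 4.56 and 29.9 CPM against 179, 106, 23.3 and 131 CPM, the apelin receptor Aplnr was lower, and so were Fcer1g and Prtn3 of myeloid cells. In Ho1 the cells with neither Npr3 nor the entry counts, of which 50 in the 4 libraries held 1 Nts UMI, had 17213 CPM of 12 blood genes against 161 to 214 CPM in the other libraries, whereas the cushion cells held 154 to 162 CPM in all 4. In Wt1, Wt2, Ho1 and Ho2 the 11 macrophage genes summed to 41.3, 53.6, 549.8 and 29.4 CPM in the cells with neither. The cushion cells held 13.5, 7.11, 11.3 and 9.58 CPM of them. The 16 cardiomyocyte genes summed to 1183, 851, 2716 and 503 CPM against 1141, 903, 4984 and 1378 CPM in the cushion cells. Of 13 tested, Myl4, Tnni1 and Tnnc1 were called higher in the cushion cells and none lower. The part of these transcripts was not tested.

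The cushion cells were divided by the entry counts of the rule into a Wnt4 and an Nts side, with cells holding both on the Wnt4 side. A total of 235 cells held Wnt4, 270 held the Nts count and 97 both, so 173 entered by Nts alone. The groups differed in 580 of 6294 genes (9.22%), 5.35% higher in the 235 cells with Wnt4 and 3.86% higher in the 173 cells with Nts only. DESeq2 called 215 of these genes. Wnt4 cells held more Fabp5, a fatty-acid binding protein named after its values were seen, at 2957, 1729.7, 3444 and 2721 CPM against 287, 369, 512 and 517 CPM (log2 fold change 2.63 ± 0.11, edgeR adjusted p = 2.3e-11). They also held more Nrg1, at 48.8, 38.8, 51.1 and 45.3 CPM against 13.4, 14.01, 10.2 and 12.7 CPM, and more Klf2, at 486, 607, 596 and 908 CPM against 380.4, 358, 427 and 475 CPM. In each library the Wnt4 cells were higher for all 3. The collagen Col13a1 and the carbonic anhydrase Car4 were the 2 genes with the largest differences on this side. The ranking covers called genes with a mean of at least 20 CPM in the higher group and the same direction in every library. Both genes were at 0 in the Nts-only cells of Wt1 and Ho2.

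Nts-only cells held more Isl1 and Bmp4. Isl1, the LIM factor of second heart field progenitors, stood at 190.2, 121, 24.5 and 107 CPM in them against 18.7, 31.5, 5.01 and 7.25 CPM in the Wnt4 cells (log2 fold change -2.66 ± 0.24, edgeR adjusted p = 6.5e-07). Bmp4 stood at 93.8, 81.7, 61.2 and 48.9 CPM against 20.1, 16.8, 14.02 and 10.9 CPM. The tendon and valve factor Scx, the Wnt antagonists Sost and Dkk1, and Rprm were higher too, and for Isl1 the Nts-only value of Ho1 lay below the Wnt4 value of Wt2. Of the 12 genes of the vascular list 8 did not pass the filter on low counts, and the 4 tested, Gja5, Gja4, Sox17 and Cd34, were higher in the Nts-only cells, with a median log2 difference of -1.02. Low genes could pass that filter through their level in the Nts-only cells, so the count is no support for the list. Vwf, von Willebrand factor, stood at 163, 166, 118 and 139.6 CPM against 43.1, 61.9, 53.1 and 34.4 CPM. Sox9 and Has2 were higher in Nts-only cells and Cdh11 in Wnt4 cells. DESeq2 did not call Sox9.

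**Figure D3:**
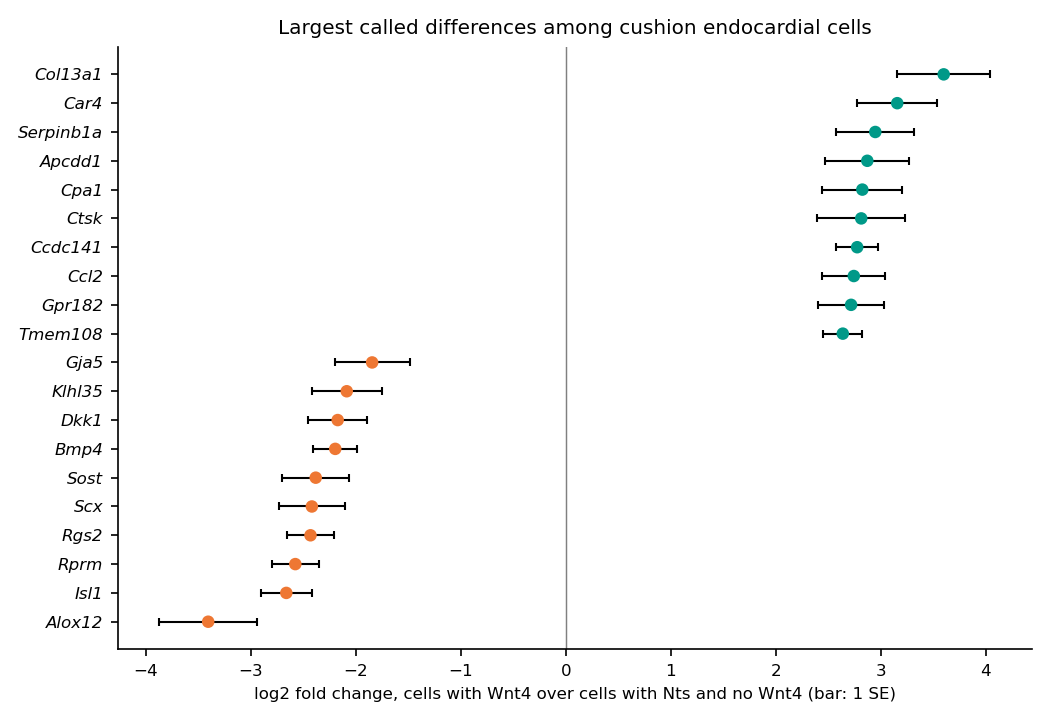
The 10 genes with the largest called log2 fold changes in each direction, cushion cells with Wnt4 over cushion cells with Nts and no Wnt4, as the fitted value with 1 SE over 4 libraries. They were taken among genes with a mean of at least 20 CPM in the higher group and the same direction in every library. Col13a1 and Car4 lie at 3.60 and 3.16 on the Wnt4 side, and Isl1, Bmp4 and Dkk1 at -2.66, -2.20 and -2.17 on the Nts side.

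Several genes that set the cushion cells apart were near level between the 2 sides. Nfatc1 stood at 91.9, 79.8, 101 and 96.1 CPM with Wnt4 and 72.3, 94.6, 100.003 and 65.3 CPM with Nts only, and Edn1 at 177, 155, 236 and 236 CPM and 126, 193, 239 and 194 CPM; neither was called, nor were Vcan and Dhh. Cell cycle genes were higher with Wnt4, in 10 of 26 S phase genes and 7 of 28 G2/M phase genes and never lower. Depth moved the same way in 3 of 4 libraries: the medians were 11875.5, 14388.5, 13866.5 and 15073 UMIs with Wnt4 and 10238, 12976, 14000 and 13551 UMIs with Nts only, and its part was not tested. Of 17 cholesterol synthesis genes 5 were higher with Wnt4 and none lower, with a median log2 difference of 0.61. Idi1 stood at 64.6, 63.0, 88.1 and 45.3 CPM against 32.1, 26.9, 42.9 and 27.2 CPM, and DESeq2 did not call it. Of 12 cardiomyocyte genes 5 were higher in the Nts-only cells and 1 in the Wnt4 cells, and the part of these transcripts was not tested.

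The effect of the Cyp51 allele was the main question of the series. In the cushion cells 1 of 8546 genes (0.0117%) passed edgeR's quasi-likelihood test with 2 Ho and 2 Wt libraries, DESeq2 called the same 1 gene, and 459 genes (5.37%) had an unadjusted p under 0.05. The Ho and Wt values did not overlap, with Ho higher, for 17.1% of genes, and with Ho lower for 17.2%. The gene called was Gm29773, named here because it is the only one, an antisense gene at chr8:123896273-123900620 (+) of GRCm38 that overlaps Nup133 and Gm20388. It stood at 0, 0, 38.7 and 23.0 CPM in Wt1, Wt2, Ho1 and Ho2 (edgeR adjusted p = 0.0085). Its UMIs lay in 1 cell of Ho1 with 59 UMIs and 1 cell of Ho2 with 26 UMIs, and among the other endothelial cells 19, 22, 28 and 18 cells held it, up to 92 UMIs in a cell. Leaving out Wt1, Wt2, Ho1 or Ho2 gave 6, 10, 60 and 221 called genes; each of these fits has 1 library in 1 genotype, which is assumed to vary like the others, and so have the calls without a library given below.

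None of the 23 cholesterol synthesis genes tested was called, and their median log2 difference was 0.20. Cyp51 stood at 56.4, 31.3, 50.5 and 48.7 CPM (log2 fold change 0.24 ± 0.26, edgeR adjusted p = 0.97), with the Ho values inside the Wt range. None of 8 hedgehog pathway genes was called: Ptch1 stood at 20.9, 21.6, 24.3 and 21.2 CPM and Smo at 24.6, 38.3, 27.6 and 27.4 CPM. Gata4 stood at 76.4, 102, 121 and 122 CPM (0.42 ± 0.17, adjusted p = 0.88) and Klf2 at 437, 477, 528 and 675 CPM (0.39 ± 0.14, adjusted p = 0.83). The genotypes did not overlap for either gene, with Ho higher, which was so for 17.1% of all genes. Klf2 passed the test without Ho1 (0.56). Differences the size of that of Cyp51, near its SE, were not detectable with 2 libraries a group.

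The genes with the smallest p-values that were not called are given as values. Atf3, a stress-response factor, stood at 139, 149.9, 282 and 247 CPM (log2 fold change 0.87 ± 0.14, edgeR adjusted p = 0.077). Gpc3, a glypican that modulates growth factors and lies on the X chromosome (chrX:52272426-52613950, GRCm38), stood at 52.7, 40.4, 15.8 and 10.6 CPM (-1.75 ± 0.28, adjusted p = 0.077). Sex and genotype cannot be told apart in Ho1, and the part of sex in this value was not tested. Pthlh, the parathyroid hormone-related ligand, stood at 13.6, 3.77, 29.5 and 31.9 CPM (adjusted p = 0.41). The mitochondrial transcript mt-Nd1 stood at 432, 363, 593 and 649.7 CPM; the median share of UMIs on mitochondrial genes was 1.10%, 1.15%, 1.17% and 1.44% in the cushion cells and 1.03%, 1.20%, 1.28% and 1.61% in all kept cells, and its part was not tested. The groups did not overlap for any of these 4, which were chosen by their small p-values. Of all 8546 genes, 17.1% did not overlap with Ho higher and 17.2% with Ho lower. Atf3 passed the test without Ho1 (0.77) and without Ho2 (0.95), and Gpc3 without Ho1 (-2.08), without Ho2 (-1.53) and without Wt2 (-1.96).

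Several of the other genes with small p-values belong to cardiomyocytes. Myh6 stood at 9.09, 19.4, 145 and 62.0 CPM (adjusted p = 0.060), Myl3 at 56.4, 30.7, 266 and 80.6 CPM and Actc1 at 136, 115, 887 and 207 CPM. The 13 genes of the cardiomyocyte list tested had a median log2 difference of 1.97, with none called, and 0.28 with 4 called without Ho1. When the 187 cushion cells with no Tnnt2 UMI were compared alone, a set chosen after the data were seen, Actc1 changed sign to -0.09. That set keeps 57, 62, 29 and 39 cells and removes by construction those with cardiomyocyte RNA, most of all in Ho1, so the sign of Actc1 there is not independent of the choice of cells. Actc1 passed the test without Ho1 (0.74) and without Ho2 (2.83).

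**Figure D4:**
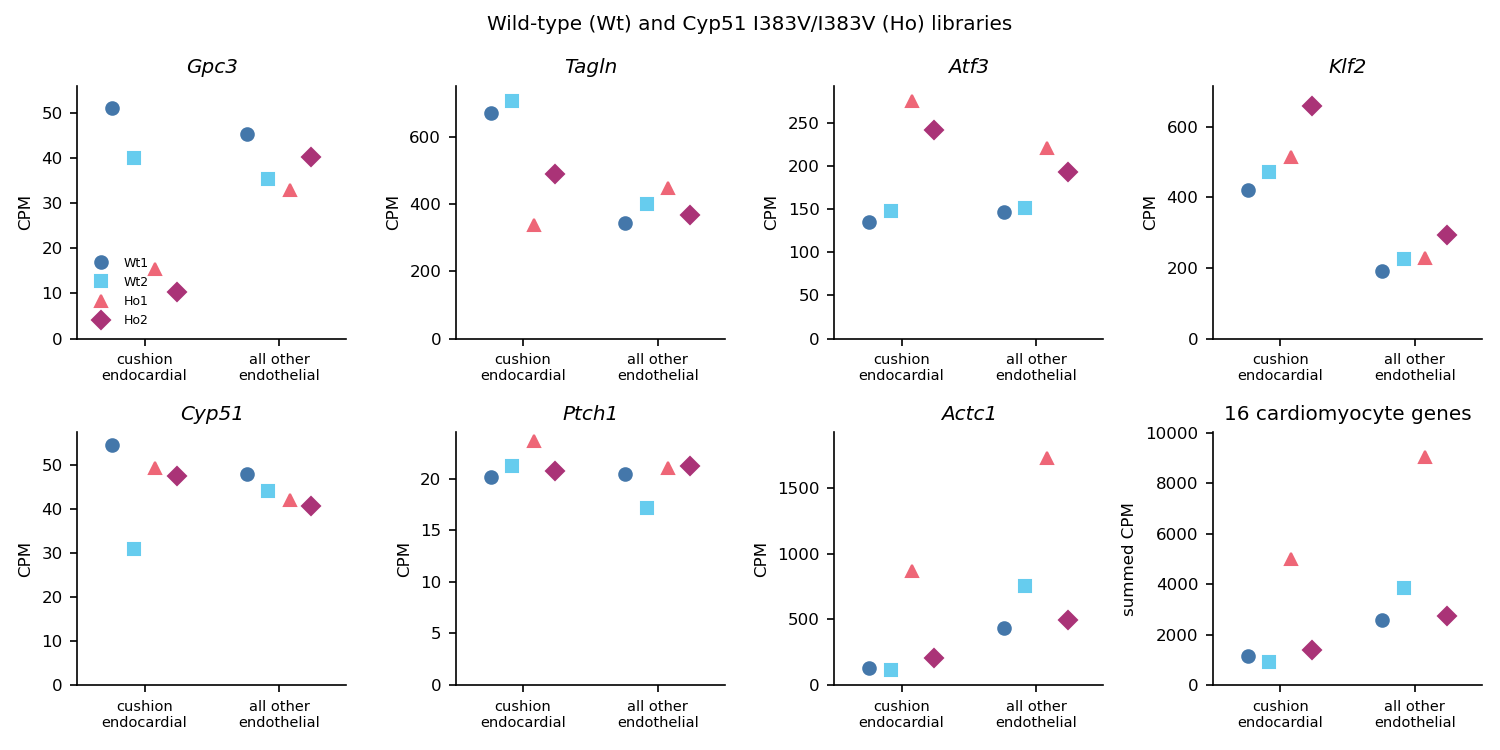
Levels in CPM of 7 genes, and the summed CPM of 16 cardiomyocyte genes, in the cushion endocardial cells and in all other endothelial cells of each library (vertical axes from 0, 1 symbol a library). In the cushion cells Gpc3 and Tagln have each Ho library under each Wt library, which is not seen in the other endothelial cells, and Ho1 is highest of the 4 libraries for Actc1 and the summed cardiomyocyte genes in both populations.

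The genotype difference itself differed between cushion cells and other endothelial cells for 15 of 13547 genes (0.111%), 10 higher (0.0738%) and 5 lower (0.0369%) in the cushion cells, by the edgeR test of the interaction. Gpc3 stood at 51.0, 39.9, 15.4 and 10.4 CPM in the cushion cells and at 45.3, 35.4, 32.8 and 40.2 CPM in the others, a difference of log2 fold changes of -1.61 ± 0.27 (adjusted p = 0.00065). Tagln, the actin-binding transgelin of smooth muscle, stood at 673, 708, 339.8 and 492 CPM against 345, 400.4, 447 and 368 CPM (-0.88 ± 0.12, adjusted p = 9.4e-06). For both genes, which were taken from those called, the Ho and Wt cushion values were apart and those of the other cells overlapped. Acta2 and Cnn1, further smooth muscle genes, were also on the lower side. On the higher side, 9 of the 10 were the sarcomere and atrial peptide genes Myl1, Nppa, Myh6, Ttn, Actc1, Myl7, Myl3, Myl4 and Tnnc1, and the tenth was Gm29773. In the cells with no Tnnt2 UMI, a choice that itself removes cardiomyocyte RNA, 7 of these 9 turned negative, and Actc1 was called lower (-0.83, edgeR adjusted p = 0.0448). Myl1, Nppa and Myh6 turned negative with the rule and the levels on separate portions of the UMIs, and without Scrublet doublets only Nppa of the 9 was called and Tnnc1 was -0.0071. With Twist1 allowed Gpc3 was -0.31 and Tagln -0.43, and neither was called. Without Wt1, Wt2, Ho1 and Ho2 in turn 27, 23, 14 and 37 genes were called, and DESeq2 called 2 of the 15. With the rule applied after thinning none was called by edgeR, and the difference of Gpc3 was then 0.84.

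The direction of the genotype difference in the share of cushion cells was not the same under all settings of the rule. They were 6.17%, 6.34%, 4.51% and 6.103% of endothelial cells in Wt1, Wt2, Ho1 and Ho2, with means of 6.26% ± 0.12 (Wt) and 5.31% ± 1.13 (Ho), where the error is the SD of 2 libraries, a difference of -0.952 points (exact permutation p = 0.3333, two-sided, the smallest that 2 against 2 allows). Both Ho shares lay below both of the Wt shares, and Ho1 was the lowest. Ho1 also had 225 of 2372 endothelial cells at or over the Tnnt2 limit, against 38 of 1490, 79 of 2065 and 33 of 1278 in Wt1, Wt2 and Ho2, and the part of these cells in the share was not tested. Of all kept cells they were 1.11%, 1.92%, 1.54% and 1.31%, with the Ho values inside the Wt range (-0.0879 points, exact permutation p = 1). With Twist1 allowed the share was 15.4%, 15.2%, 14.6% and 16.7% of endothelial cells, with the Ho mean higher by 0.327 points (exact permutation p = 1). With the rule on 1 of 2 equal portions of the UMIs the Ho mean was lower by 0.691 points of endothelial cells, as on all UMIs, and higher by 0.135 points of kept cells, and with every cell thinned to 2000 UMIs 179 cells gave 11.4%, 12.8%, 13.3% and 13.7%, with Ho higher by 1.36 points (exact permutation p = 0.3333). After thinning only 315, 429, 430 and 226 cells still counted as endothelial, against 1490, 2065, 2372 and 1278 on all UMIs, so the denominators of these shares differ.

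**Figure D5:**
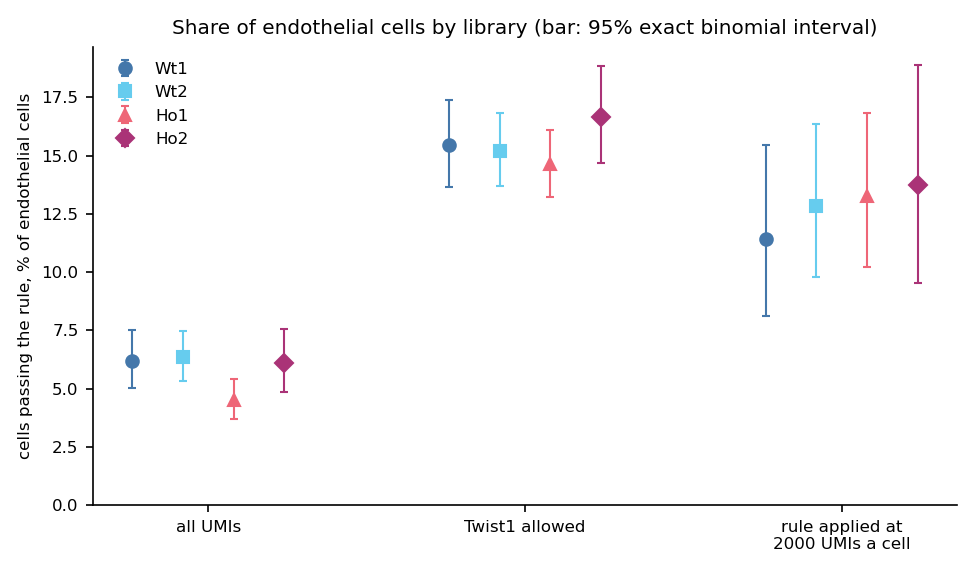
Cells that meet the rule as a percentage of endothelial cells (vertical axis from 0) in each library, with the 95% exact binomial interval for counting error, for the rule on all UMIs, the rule with Twist1 allowed, and the rule applied after thinning each cell to 2000 UMIs. On all UMIs Ho1 is lowest at 4.51%. After thinning Wt1 is lowest at 11.4% and all 4 intervals overlap, but fewer cells count as endothelial than on all UMIs.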

How the data were processed

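The deposited files hold raw UMI counts per gene and cell from 10x 3' libraries of 2 Wt and 2 Ho heart samples, which the authors made with Cell Ranger 6.1.1 on mouse mm10 (GRCm38); the submitters' processing notes also name Seurat 4.1.0. Each barcode was filtered and chosen as the report gives, and the UMI counts of the chosen cells were summed per library and population. The members, the gene lists and the comparisons were chosen with earlier results of these data known, and several alternatives and the comparison with Npr3-positive cells holding Wnt4 or Nts were added after the data were seen.

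Sums were tested with edgeR 4.0.16 under R 4.3.3 (quasi-likelihood test, TMM scaling, filterByExpr, Benjamini-Hochberg adjustment over all genes tested, threshold 0.05), with the library as a block between populations. The study's test per cell was not used, since cells of a library are not replicates. The 7 genes of the rule were left out of the tests. DESeq2 1.42.0 was an alternative, and scanpy 1.11.5 gave the Scrublet calls, which removed no cell from the main results. Other alternatives were scaling by relative log expression, filters, leaving out each library, thinning, splitting of UMIs and changes of the rule. The fits of Ho against Wt, of cushion cells against the other endothelial cells, of their interaction and of Wnt4 against Nts-only cells were tested on simulated data; the other 3 comparisons run through the same script and were not simulated. Shares were compared by exact permutation, with Clopper-Pearson intervals at 95%.

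Genes were named by rule: up to 10 a direction with the largest called difference, a mean of at least 20 CPM in the higher group and the same direction in every library; called genes of the lists and up to 4 of the most abundant; the genes of the rule and markers; and Cyp51, Gli1, Ptch1, Shh, Smo and Gata4. In the genotype and interaction fits genes with the smallest p filled the 10. Predicted genes were counted, and Gm29773 was described only because it was the single call. Values of a few genes are not reported here.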

Additional observations from a re-analysis of the deposited data

Results flagged for a closer look

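The difference between the genotype effect in cushion endocardial cells and that in the other endothelial cells passed the interaction test for 15 genes, and this is what drew attention to them. In log2 units it was 1.20 for Actc1, 1.86 for Nppa, 1.74 for Myh6, 1.49 for Ttn, 1.14 for Myl7, 2.02 for Myl1, 1.09 for Myl3, 0.68 for Myl4 and 0.67 for Tnnc1, all genes of cardiomyocytes. The cardiomyocyte list summed to 4984 CPM in the cushion cells of Ho1 and 9029 CPM in its other endothelial cells, the highest of the 4 libraries in both. The difference was -0.88 for Tagln, -0.88 for Acta2, -1.61 for Gpc3 and -2.03 for Cnn1. In the cushion cells each Ho library lay under each Wt library for Gpc3 and Tagln. For Gm29773 the fitted difference was 11.45, a value that depends on the prior count since both Wt libraries were at 0, and its UMIs came from 1 cushion cell in each Ho library.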

How the results depend on the processing

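Of the 247 genes in lists called against the Npr3-positive cells, DESeq2 called 196, and 213 to 224 were called in the same direction with a library left out (213 without Ho1). Gata5, Efnb2, Gja4, Wnt5a, Sqle, Msmo1, Fdps and Acat2 lost the call with DESeq2 and without at least 1 library, and Dkk3 without Wt2. Of 104 called between Wnt4 and Nts-only cells DESeq2 called 54, without Sox9 and Idi1. Klf2 kept its direction in the genotype comparison under every setting. The genotype count of 1 called gene was not stable: it was 88 with no filter on low counts, 3 with at least 10 UMIs in every sum, 3 with sums thinned to the smallest library, 5 with Cdh5 and Pecam1 at 4 UMIs or more, 0 with the rule applied after thinning to 2000 UMIs, 3 with the rule and the levels on separate equal portions of the UMIs, 12 in cells with no Tnnt2 UMI, 7 in cells with Wnt4 alone, and 6 to 221 with a library left out. It was 221 without Ho2 and 60 without Ho1. With the replicate block 86 genes were called; Wt1 and Ho1 share only a number (the deviations from the genotype means correlated at 0.106 over 5426 genes), so the block is no stronger evidence. Gm29773 turned to -0.73 after thinning and -0.49 with separate portions, Actc1 to -0.0948 with no Tnnt2 UMI, Gata4 to -0.12 and Cyp51 to -0.40 after thinning. Cyp51 was -0.18 without Wt2, Smo ranged from -0.48 to 0.16 (without Wt2) and Ptch1 from -0.0017 (without Ho1) to 0.1835 with a library left out, and Ptch1 was -0.0475 in cells with Nts alone; none of these was called.

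Against all other endothelial cells the count was 758 after thinning, 1670 with separate portions, 4717 with Twist1 allowed, 1579 with no Tnnt2 UMI and 1544 without the library block. With Twist1 allowed Pf4 was 1.16, Postn 0.0827 and Rtn1 0.66, and with separate portions Pf4 was 1.95. DESeq2 called 1962 genes against the Npr3-positive cells and 1373 against those with Wnt4 or Nts. It called 389 against the cells with neither and 215 between the Wnt4 and Nts-only cells. Against the cells with neither, edgeR called 965 genes, and 617 to 914 with a library left out, lowest without Ho2.

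The 15 interaction calls became 2 with DESeq2, 25 with no filter, 7 with at least 10 UMIs, 14 to 37 with a library left out (23 without Wt2, 27 without Wt1 and 37 without Ho2), 7 without Scrublet doublets, 0 after thinning, 7 with separate portions, 5 with Twist1 allowed and 40 with no Tnnt2 UMI. With no Tnnt2 UMI Nppa was -0.18, Ttn -0.49, Actc1 -0.83, Myl7 -0.50, Myl3 -0.33, Myl4 -0.62 and Tnnc1 -0.61. With separate portions Myl1 was -0.29, Nppa -0.0349 and Myh6 -0.0873. After thinning Nppa was -0.13, Cnn1 0.25 and Gpc3 0.84, and without Scrublet doublets Tnnc1 was -0.0071.

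The difference in the share of kept cells ranged from -0.490 to 0.314 points with a library left out (0.0304 without Ho2), and was 0.0136 with Wnt4 alone, 0.0514 after thinning, 0.135 with separate portions and 0.603 with Twist1 allowed. That in the share of endothelial cells was 1.36 after thinning, 0.327 with Twist1 allowed, and -1.75 to -0.156 with a library left out. With 1112312 to 1829377 UMIs a library, genes of a few CPM rest on few UMIs. The cause of these changes was not tested.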
